A study of Homo sapiens with 24 samples.

Results

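The MYC network comprised the 10 genes MYCN, MYC, MYCL, MAX, MXD1, MXD3, MXD4, MXI1, MNT and MGA. Its probes were those whose annotated symbol, or the current synonym of that symbol, was one of these names (MYCL is annotated under its older symbol MYCL1). This gave 25 of the 44708 probes on the array and 10 of the 17199 named genes. MYCN and MGA had 4 probes each, MAX, MXD1 and MXD4 had 3, MYC, MYCL and MNT had 2, and MXD3 and MXI1 had 1. Probes of a gene are numbered from the brightest to the dimmest over all arrays. All levels are log2 fluorescence intensities and all differences are differences of log2 intensity. A probe's level depends on its sequence, so levels were compared between arrays and never between probes.

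RNA came from IMR-32 and SK-N-AS, established human neuroblastoma cell lines. The transgene of a culture was either the homeobox gene HOXC9 or GFP, the gene of green fluorescent protein used as control, and both were described as induced. The 4 groups were therefore IMR-32 with HOXC9, IMR-32 with GFP, SK-N-AS labelled HOXC9 and SK-N-AS with GFP, each with 1 array at 0 h, 1 at 96 h and 4 between, at 6, 12, 24 and 48 h. Each line is a single model, the sources used here do not say whether several clones were pooled, and the hours stand in for replicates. Hours were blocked, so the p-values of comparisons between groups measure how a difference varied from hour to hour. For HOXC9 against GFP this spread was estimated from both lines together.

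MYC proteins are transcription factors that bind DNA as heterodimers with MAX, most strongly at the E-box CACGTG, and raise transcription of genes for growth and proliferation. The MXD proteins (including MXI1), MNT and MGA compete for MAX and repress through the same sites. In neuroblastoma, amplification of MYCN on the short arm of chromosome 2 marks high-risk tumours. IMR-32 is known to carry this amplification, whereas SK-N-AS is known to lack it and to express MYC.

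The HOXC9 probe checked the labels. In IMR-32 it averaged 10.02 ± 0.19 (SD, n = 5) at 6 to 96 h in the HOXC9 arrays and 5.94 ± 0.26 in the GFP arrays, whereas the SK-N-AS averages were 11.71 ± 0.06 where HOXC9 was the label and 12.28 ± 0.17 with GFP. HOXC9 thus went against the label in SK-N-AS, and every direction given for that line is that of the labels. In IMR-32 the HOXC9 probe already read 10.31 at 0 h, against 6.15 with GFP, so 0 h does not give a level before HOXC9 rose. Within the SK-N-AS group labelled HOXC9, the hours 6, 12 and 24 also stood apart from 0, 48 and 96 h, with array-to-array correlations of 0.979 to 0.984 between these sets and at least 0.989 within them. Member calls that were gained or lost without the 6, 12 and 24 h arrays of SK-N-AS are therefore also given without them. For HOXC9 against GFP this leaves 48 and 96 h in SK-N-AS, with a spread estimated jointly with IMR-32. In the comparisons between lines these hours were left out in both lines, which leaves 0, 48 and 96 h. HOXC9 itself differed by -0.57 ± 0.14 (adjusted p = 0.00985) in SK-N-AS and by -0.52 (adjusted p = 0.206) without the 6, 12 and 24 h arrays of that line. In IMR-32 with HOXC9 these hours also stood apart from 0, 48 and 96 h on some probes. MYCN probes 1 to 4 differed by -0.36, 0.11, -0.39 and -0.71 and MXI1 by 0.30, without overlap, whereas the IMR-32 GFP arrays overlapped on these probes. In SK-N-AS with GFP some probes parted too, such as MYC probe 1 (-0.34). These hours were not left out together for HOXC9 against GFP in IMR-32. Of 7 measured noradrenergic neuroblastoma markers, 7 averaged above log2 7 in both IMR-32 groups and 6 in both SK-N-AS groups. Of 8 mesenchymal markers, 1 did so in IMR-32 with HOXC9, 3 in IMR-32 with GFP, 6 in SK-N-AS labelled HOXC9 and 5 in SK-N-AS with GFP. Of 7 measured blood, endothelial and epithelial markers, EPCAM passed that level in IMR-32 with GFP (7.10), and PTPRC did in SK-N-AS (12.52 under the HOXC9 label and 12.58 under GFP, against 1.94 and 1.56 in IMR-32). The part of these markers in the results below was not tested.

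MYCN, the family member of the developing nervous system, was far brighter in IMR-32 on each of its 4 probes. Its brightest probe ranged from 14.86 to 15.40 (median 15.34) over the 6 IMR-32 GFP arrays and from 8.38 to 9.05 (median 8.87) over the 6 SK-N-AS GFP arrays. The second probe lay between 16.40 and 16.60 (median 16.49) in IMR-32 with GFP and between 1.38 and 2.71 (median 1.75) in SK-N-AS with GFP. On all 4 probes the lowest IMR-32 array stood above the highest SK-N-AS array. The SK-N-AS minus IMR-32 differences in the GFP arrays were -6.39 ± 0.16 (SE, adjusted p = 2.04e-07), -14.68 ± 0.17, -2.98 ± 0.11 and -4.08 ± 0.19 for MYCN probes 1 to 4 by limma with hour as a block. All 4 passed an adjusted p of 0.05, as did 63.8% of all probes on the array. The size of the second value depends on how a near-background level is treated: with 50 units added before taking logs, MYCN probe 2 differed by -10.75. In the arrays labelled HOXC9, which share none with that comparison, the 4 MYCN probes differed by -5.08 ± 0.35, -14.58 ± 0.23, -2.67 ± 0.11 and -3.78 ± 0.28, and 56.9% of all probes passed.

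The promoter of MYCN is shown because E2F factors, which are themselves regulated by MYC proteins, are known to act on it. The stretch lies at chr2:15940344-15940415 (RefSeq, GRCh38.p14, plus strand), upstream of the annotated start.
MYCN: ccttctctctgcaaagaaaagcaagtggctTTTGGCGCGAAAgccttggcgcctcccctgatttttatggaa
Capitals mark the letters TTTGGCGC and GCGCGAAA, which overlap here by sharing GCGC. The search, over both strands, was for TTTGGCGC, GCGCCAAA, TTTCGCGC and GCGCGAAA, and 1.15% of 35116 annotated promoter windows (250 bases before to 50 after a start) held at least 1 of them. Of the 9 network genes with a window in the table, MYCN and MGA held such letters, as did 2.05% of the 13566 array genes with a window. The match is a description of the sequence only.

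Within IMR-32, MYCN was slightly lower with HOXC9 on probes 1, 3 and 4 and level on probe 2, and only probe 3 passed the test. MYCN probe 3 read 9.48, 9.08, 9.45, 9.74 and 9.59 at 6, 12, 24, 48 and 96 h with HOXC9, and 10.18, 10.08, 9.74, 10.14 and 9.96 with GFP. The HOXC9 array was the lower at each of the 5 hours, although the highest HOXC9 and the lowest GFP value met. MYCN probe 3 was lower with HOXC9 by 0.55 ± 0.11 (SE, adjusted p = 0.00579) on the log2 scale in IMR-32, and the difference at 0 h was already -0.59. In this comparison 22.8% of all probes passed. MYCN probe 1 read 14.65, 14.15, 14.61, 14.82 and 14.84 with HOXC9 and 15.36, 15.33, 14.86, 15.04 and 15.40 with GFP at the same hours. These groups did not overlap, and its difference of -0.58 ± 0.24 gave an adjusted p of 0.107 in the joint fit of both lines and 0.0388 in the IMR-32 arrays alone. Without the 6, 12 and 24 h arrays of SK-N-AS the joint fit gave MYCN probe 1 an adjusted p of 0.0291. MYCN probe 4 differed by -0.65 ± 0.28 (adjusted p = 0.13), with its lowest value, 7.73, in the HOXC9 array at 6 h. MYCN probe 2, which averaged 16.53 with HOXC9 and 16.51 with GFP, differed by 0.02 ± 0.24.

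In SK-N-AS the MYCN probes did not move together. MYCN probe 1 read 9.24, 10.21, 10.25, 10.21, 9.13 and 8.37 from 0 to 96 h in the arrays labelled HOXC9, against 8.83, 8.91, 8.81, 9.01, 9.05 and 8.38 with GFP. The 6, 12 and 24 h arrays averaged 10.22, against 8.91 for the others of their group, and the 48 and 96 h arrays lay beside their GFP partners. MYCN probe 1 was higher in the arrays labelled HOXC9 by 0.80 ± 0.24 (adjusted p = 0.0249, against 35.4% of all probes passing), and by 0.03 ± 0.23 (adjusted p = 0.963) without the 6, 12 and 24 h arrays. MYCN probes 2, 3 and 4 differed by -0.07 ± 0.24, -0.31 ± 0.11 and -0.20 ± 0.28, none past the test.

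**Figure D1:**
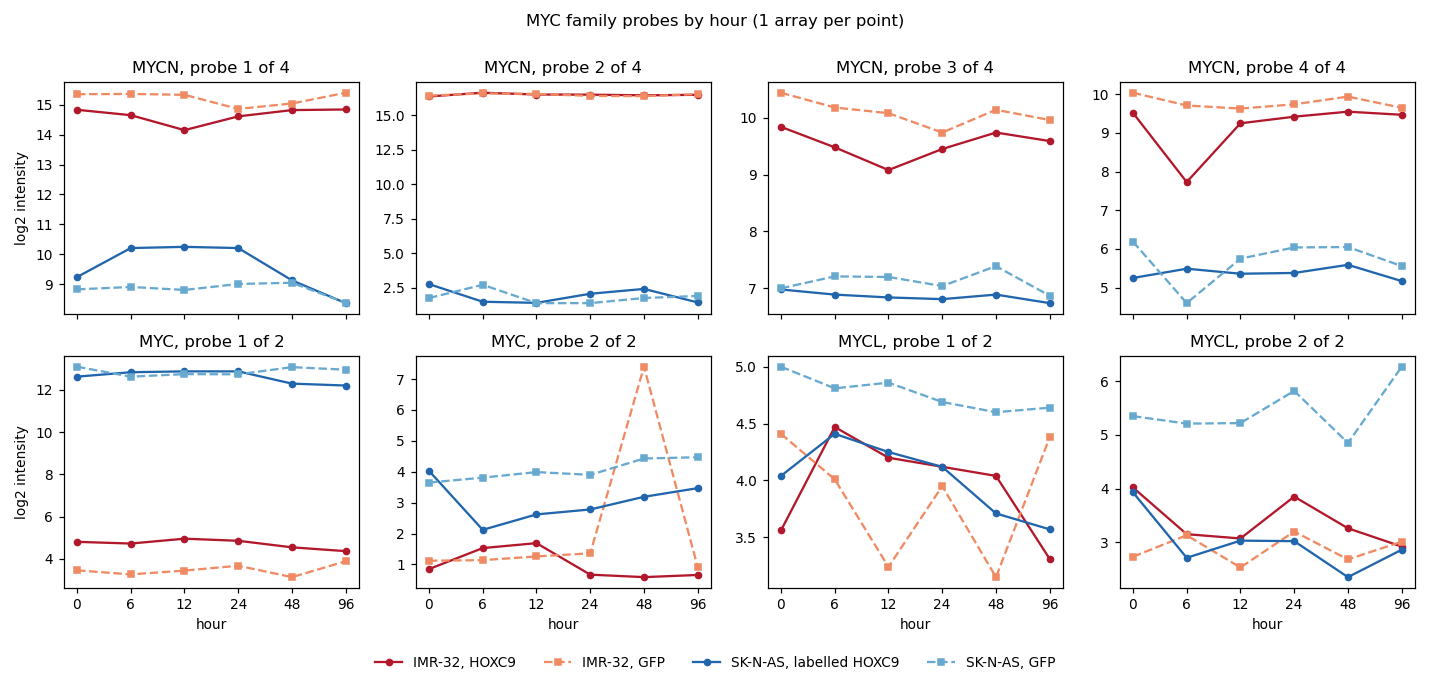
Log2 intensity (vertical axis) of each MYCN, MYC and MYCL probe against the hour (horizontal axis, spaced by rank), 1 array per point, in the 4 groups. All 4 MYCN probes separate the lines, with IMR-32 above, MYC probe 1 separates them with SK-N-AS above, and 1 IMR-32 GFP array at 48 h reads 7.40 on MYC probe 2.

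MYC, the most widely expressed member of the family and encoded on chromosome 8, showed the opposite order. MYC probe 1 lay between 12.63 and 13.10 (median 12.86) in SK-N-AS with GFP and between 3.14 and 3.89 (median 3.45) in IMR-32 with GFP. In the arrays labelled HOXC9 it lay between 12.21 and 12.88 (median 12.73) in SK-N-AS and between 4.37 and 4.96 (median 4.77) in IMR-32. The lines did not overlap in either set. SK-N-AS exceeded IMR-32 on MYC probe 1 by 9.40 ± 0.13 (SE, adjusted p = 1.92e-08) in the GFP arrays and by 7.91 ± 0.08 under the HOXC9 label. With 50 units added before logs these MYC differences were 6.95 and 6.38, since the IMR-32 level is dim. MYC probe 2 was dim in both lines, at 4.04 ± 0.34 (SD, n = 6) in SK-N-AS with GFP. In IMR-32 with GFP, MYC probe 2 read 1.12, 1.14, 1.26, 1.36, 7.40 and 0.91 from 0 to 96 h. The 48 h array alone overlapped SK-N-AS, and the line difference of 1.84 ± 0.85 on this probe did not pass (adjusted p = 0.0974). In the arrays labelled HOXC9 the lines did not overlap on MYC probe 2, which was higher in SK-N-AS by 2.04 ± 0.37 (adjusted p = 0.00241), and by 0.18 with 50 units added.

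With HOXC9, MYC probe 1 was higher in IMR-32. It read 4.81, 4.73, 4.96, 4.86, 4.55 and 4.37 from 0 to 96 h with HOXC9 and 3.46, 3.27, 3.45, 3.68, 3.14 and 3.89 with GFP. The HOXC9 array was above the highest GFP array at every hour, 0 h included. MYC probe 1 was higher by 1.21 ± 0.20 (adjusted p = 0.00196), and the difference at 0 h was already 1.35. The 1.21 is a 2.32-fold difference between dim levels, and it shrank to 0.62 and 0.31 with 16 and 50 units added before logs. In SK-N-AS, where the same MYC probe is bright, the groups overlapped and the difference was -0.21 ± 0.20 (adjusted p = 0.462), and -0.76 ± 0.25 (adjusted p = 0.0945) without the 6, 12 and 24 h arrays. The SK-N-AS minus IMR-32 difference of these MYC effects was -1.42 ± 0.28 (adjusted p = 0.00382, with 36% of all probes passing), and -0.52 with 50 units added. The dim MYC probe 2 differed by -1.39 ± 0.87 with HOXC9 in IMR-32 (adjusted p = 0.292), opposite in sign to probe 1, and its groups overlapped. In SK-N-AS it differed by -1.28 ± 0.87 (adjusted p = 0.29 in the joint fit and 0.00262 in the SK-N-AS arrays alone), lower at 5 of 5 hours and without overlap. With 50 units added, MYC probe 2 differed by -0.42 and -0.24 in the 2 lines.

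MYCL, the family member first found amplified in small-cell lung cancer, was dim in all 4 groups, with no array above 6.27 on either probe. MYCL probe 2 read 5.35, 5.21, 5.22, 5.82, 4.85 and 6.27 from 0 to 96 h in SK-N-AS with GFP and 3.93, 2.71, 3.03, 3.02, 2.35 and 2.86 in the arrays labelled HOXC9. All 6 GFP arrays stood above all 6 arrays labelled HOXC9. MYCL probe 2 was lower under the HOXC9 label by 2.68 ± 0.17 (SE, adjusted p = 3.01e-06) in SK-N-AS and differed by -2.96 ± 0.27 (adjusted p = 0.00112) without the 6, 12 and 24 h arrays. With 50 units added before logs it was lower by 0.75. MYCL probe 1 differed by -0.71 ± 0.25 (adjusted p = 0.0525) in the same comparison, without overlap, and passed in the SK-N-AS arrays alone (adjusted p = 0.0191). In IMR-32 the MYCL probes differed by 0.28 ± 0.25 and 0.34 ± 0.17, neither past the test. Between lines in the GFP arrays, MYCL probes 1 and 2 were higher in SK-N-AS by 0.91 ± 0.19 and 2.57 ± 0.16. MYCL probe 1 no longer passed without the 6, 12 and 24 h arrays of both lines (0.77, adjusted p = 0.115). Under the HOXC9 label they differed by 0.07 ± 0.12 and -0.40 ± 0.15, not past the test.

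MAX, the shared partner of the network, did not pass the test between any of the groups compared on its 2 brighter probes. MAX probe 1 lay between 14.12 and 14.26 (median 14.18) in IMR-32 with GFP, between 14.19 and 14.27 (median 14.24) in IMR-32 with HOXC9 and between 14.20 and 14.37 (median 14.27) in SK-N-AS labelled HOXC9. In SK-N-AS with GFP it spread further, from 13.70 to 14.38 (median 14.10), with its lowest values at 24 and 96 h. All 4 groups overlapped. MAX probes 1 and 2 differed between lines by -0.13 ± 0.11 and -0.08 ± 0.11 in the GFP arrays (adjusted p = 0.36 and 0.542), and by 0.04 ± 0.07 and 0.11 ± 0.08 in the arrays labelled HOXC9. With HOXC9, MAX probes 1 and 2 differed by 0.06 ± 0.11 and -0.06 ± 0.13 in IMR-32 and by 0.27 ± 0.11 and 0.16 ± 0.13 in SK-N-AS, none past the test. On the dim MAX probe 3, SK-N-AS exceeded IMR-32 by 0.53 ± 0.10 with GFP and by 1.32 ± 0.14 under the HOXC9 label. It was also higher in SK-N-AS labelled HOXC9 than with GFP, by 0.54 ± 0.19 (adjusted p = 0.0439), but by -0.07 ± 0.16 without the 6, 12 and 24 h arrays.

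Among the antagonists, MXD1, a MAX partner that represses through the SIN3 corepressor, was brighter in IMR-32. MXD1 probe 1 lay between 10.73 and 10.81 (median 10.76) in IMR-32 with GFP and between 9.39 and 10.21 (median 9.67) in SK-N-AS with GFP. With GFP the lines did not overlap on any of the 3 MXD1 probes, which were lower in SK-N-AS by 1.06 to 1.33 (-1.06 ± 0.12, -1.11 ± 0.13 and -1.33 ± 0.16, all past the test). In the arrays labelled HOXC9, MXD1 probes 1 and 3 were lower in SK-N-AS at -0.94 ± 0.07 and -1.66 ± 0.40, while probe 2 overlapped and did not pass (-1.09 ± 0.41, adjusted p = 0.0554). MXD1 probe 1 kept that call without the 6, 12 and 24 h arrays of both lines (-0.87), probe 3 lost it (-0.67, adjusted p = 0.0708) and probe 2 differed by -0.03. HOXC9 arrays of IMR-32 differed from GFP arrays by 0.06 ± 0.12, -0.33 ± 0.22 and -0.08 ± 0.20 on MXD1 probes 1 to 3, none past the test. In SK-N-AS labelled HOXC9, MXD1 probe 2 read 7.43, 5.81, 5.85, 5.61, 7.28 and 7.60 from 0 to 96 h, and probe 3 read 4.79, 2.87, 3.11, 2.60, 4.08 and 4.67. Both were lowest at 6, 12 and 24 h, while probe 1 had a median of 9.87 and no value below 9.76. The difference from GFP passed on MXD1 probe 3 (-0.74 ± 0.20, adjusted p = 0.0169) and not without the 6, 12 and 24 h arrays (-0.20 ± 0.24, adjusted p = 0.667).

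MXD3, a MAX partner of proliferating progenitors, was also lower in SK-N-AS, at -0.88 ± 0.25 (adjusted p = 0.0193) with GFP and at -1.21 ± 0.11 in the arrays labelled HOXC9. The MXD3 difference with GFP did not pass without the 6, 12 and 24 h arrays of both lines (-1.21, adjusted p = 0.0872), and that under the HOXC9 label did (-1.05). Its GFP arrays read 8.75, 9.40, 9.40, 9.73, 8.48 and 9.85 from 0 to 96 h in SK-N-AS, against 8.83, 8.23, 8.24, 8.35, 8.95 and 8.67 in the arrays labelled HOXC9. The order of the groups turned at 0 and 48 h. MXD3 was lower under the HOXC9 label by 0.88 ± 0.23 (adjusted p = 0.0141) in SK-N-AS, and differed by -0.36 ± 0.34 (adjusted p = 0.57) without the 6, 12 and 24 h arrays. In IMR-32 it ranged from 9.49 to 9.86 with HOXC9 and from 10.02 to 10.34 with GFP at 6 to 96 h, without overlap. That MXD3 difference, -0.40 ± 0.23, had an adjusted p of 0.246 in the joint fit and 0.0136 in the IMR-32 arrays alone.

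MXD4, a MAX partner associated with differentiating cells, had HOXC9 minus GFP differences of opposite sign in the lines on all 3 probes. MXD4 probe 1 read 10.58, 10.83, 10.59, 10.66, 10.68 and 10.74 from 0 to 96 h in IMR-32 with HOXC9, and 11.45, 11.08, 11.13, 11.12, 11.47 and 11.10 with GFP. In SK-N-AS it read 11.25, 11.06, 10.93, 10.95, 11.27 and 11.18 in the arrays labelled HOXC9 and 10.51, 10.64, 10.60, 10.36, 10.06 and 9.46 with GFP. On probe 1 the HOXC9 arrays lay below all GFP arrays in IMR-32 and above all GFP arrays in SK-N-AS. On MXD4 probes 2 and 3 the SK-N-AS groups overlapped at 6 to 96 h. There the array labelled HOXC9 was the higher at 3 of 5 hours on probe 2 and 4 of 5 on probe 3. The differences on MXD4 probes 1 to 3 were -0.48 ± 0.19, -0.60 ± 0.25 and -0.57 ± 0.22 in IMR-32, without overlap on any probe. Their adjusted p in the joint fit was 0.0963, 0.117 and 0.0943, and in the IMR-32 arrays alone 0.0135, 0.00758 and 0.00966. Without the 6, 12 and 24 h arrays of SK-N-AS the joint fit gave 0.0211, 0.00958 and 0.0121. In SK-N-AS, MXD4 probe 1 was higher under the HOXC9 label than with GFP by 0.86 ± 0.19 (adjusted p = 0.00655), and the difference at 0 h was already 0.74. From 0 to 96 h this probe went from 10.51 to 9.46 with GFP, and from 11.25 to 11.18 in the arrays labelled HOXC9. MXD4 probes 2 and 3 differed by 0.65 ± 0.25 and 0.59 ± 0.22 (adjusted p = 0.0681 and 0.0627). In the SK-N-AS arrays alone none of the 3 MXD4 probes passed (adjusted p = 0.0534, 0.19 and 0.178). Without the 6, 12 and 24 h arrays all 3 passed, at 1.47 ± 0.17, 1.51 ± 0.17 and 1.34 ± 0.18. The difference between the lines' effects passed on all 3 probes, at 1.34 ± 0.27, 1.25 ± 0.36 and 1.16 ± 0.31 (adjusted p = 0.00402, 0.0209 and 0.0171), and was 1.91 to 2.11 without the 6, 12 and 24 h arrays of SK-N-AS. The order of the lines also depended on the label. With GFP, MXD4 was lower in SK-N-AS by 0.53 to 0.98 over its probes (-0.95, -0.53 and -0.98), whereas in the arrays labelled HOXC9 the differences were 0.43 ± 0.09, 0.82 ± 0.10 and 0.26 ± 0.11, the last past the test only without the 6, 12 and 24 h arrays of both lines (0.40, adjusted p = 0.0383).

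MXD4 and MNT were the 2 of 9 network genes with the E-box CACGTG (its own reverse complement, so 1 search covers both strands) in a promoter window, and their stretches are shown because members of the network could bind them. The motif stood in 7.26% of all windows, and 11.3% of the 13566 array genes with a window held it. The stretches lie at chr4:2262312-2262359 for MXD4 and chr17:2401218-2401283 for MNT (RefSeq, GRCh38.p14, both on the minus strand), wholly upstream of the annotated starts. Capitals mark CACGTG.
MXD4: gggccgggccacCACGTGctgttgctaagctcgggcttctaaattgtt
MNT: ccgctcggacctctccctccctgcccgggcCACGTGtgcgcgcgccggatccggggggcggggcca
These letters describe the sequence and show no binding.

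MXI1, the MAX partner also called MAD2, was higher in IMR-32 with HOXC9 than with GFP. It read 11.19, 11.29, 11.27, 10.91 and 10.88 at 6 to 96 h with HOXC9 and 10.72, 10.70, 10.75, 10.74 and 10.84 with GFP. The groups did not overlap, 10.88 being the lowest HOXC9 value and 10.84 the highest GFP value. MXI1 was higher with HOXC9 by 0.36 ± 0.11 (adjusted p = 0.0449) in IMR-32, and the difference at 0 h was 0.19. The call was close to the threshold. It was lost in the joint fit without the 6, 12 and 24 h arrays of SK-N-AS (adjusted p = 0.0642) and when any of 4 of the 5 hours was left out. In SK-N-AS the difference was -0.30 ± 0.11 (adjusted p = 0.0589), and the lines' effects differed by -0.66 ± 0.16 (adjusted p = 0.01). Without the 6, 12 and 24 h arrays that value was -0.67 ± 0.22 (adjusted p = 0.0685). Between lines MXI1 was higher in SK-N-AS with GFP by 0.49 ± 0.12 (adjusted p = 0.0102), but not past the test without those hours in both lines (0.40, adjusted p = 0.216), and differed by -0.21 ± 0.12 under the HOXC9 label.

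MNT, a broadly expressed repressive partner of MAX, was lower in SK-N-AS on probe 1 and level on probe 2 in the GFP arrays. MNT probe 1 lay between 12.68 and 12.95 (median 12.89) in IMR-32 with GFP and between 11.65 and 12.58 (median 11.87) in SK-N-AS with GFP. The highest SK-N-AS value, at 96 h, stayed below every IMR-32 GFP array. MNT probe 1 differed between lines by -0.91 ± 0.12 (adjusted p = 0.000633) and probe 2 by -0.13 ± 0.07 (adjusted p = 0.162). In the arrays labelled HOXC9 both MNT probes were lower in SK-N-AS, probe 1 at -0.52 ± 0.09 with overlap and probe 2 at -0.99 ± 0.16 (adjusted p = 0.00124) without. MNT probe 1 did not pass in either set without the 6, 12 and 24 h arrays of both lines (-0.83 and -0.42, adjusted p = 0.0506 and 0.0512), and probe 2 under the HOXC9 label did (-0.62). In SK-N-AS, MNT probe 2 read 8.14, 7.90, 7.78, 7.90, 8.35 and 8.35 from 0 to 96 h in the arrays labelled HOXC9 and 8.78, 8.83, 8.83, 8.76, 8.91 and 8.64 with GFP, with no overlap. It was lower under the HOXC9 label by 0.74 ± 0.13 (adjusted p = 0.00209) and by 0.43 ± 0.18 (adjusted p = 0.17) without the 6, 12 and 24 h arrays. MNT probe 1 differed by only 0.10 ± 0.10 there, so the probes disagree. In IMR-32 the MNT probes differed by -0.17 ± 0.10 and 0.16 ± 0.13, neither past the test.

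MGA, which joins a T-box domain to a MAX-binding domain and works in a Polycomb complex, was lower in IMR-32 with HOXC9 than with GFP, past the test on 2 of 4 probes. MGA probe 1 read 11.74, 11.84, 11.76, 11.84 and 11.76 at 6 to 96 h with HOXC9 and 12.20, 12.12, 12.20, 12.03 and 12.20 with GFP. Every HOXC9 array was below every GFP array. MGA probe 1 was lower by 0.36 ± 0.10 (adjusted p = 0.026) and probe 3 by 0.37 ± 0.11 (adjusted p = 0.0326). At 0 h these 2 probes already differed by -0.24 and -0.36. Probes 2 and 4 differed by -0.21 ± 0.08 and -0.46 ± 0.32 without passing in the joint fit. On MGA probe 2 the groups did not overlap, and it passed in the IMR-32 arrays alone (adjusted p = 0.0379). In SK-N-AS, MGA probe 1 was lower under the HOXC9 label by 0.38 ± 0.10 (adjusted p = 0.0139), and differed by -0.13 ± 0.11 (adjusted p = 0.502) without the 6, 12 and 24 h arrays. Probes 2 to 4 differed by 0.00 ± 0.08, 0.28 ± 0.11 and 0.82 ± 0.32, none past the test. Between lines in the GFP arrays, MGA probes 1 and 2 differed by -0.02 ± 0.07 and -0.08 ± 0.10 without passing, probe 3 was higher in SK-N-AS by 0.90 ± 0.07 and probe 4 lower at -0.57 ± 0.15 (-0.36, adjusted p = 0.108, without the 6, 12 and 24 h arrays of both lines), so the probes of this long gene do not give 1 direction.

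**Figure D2:**
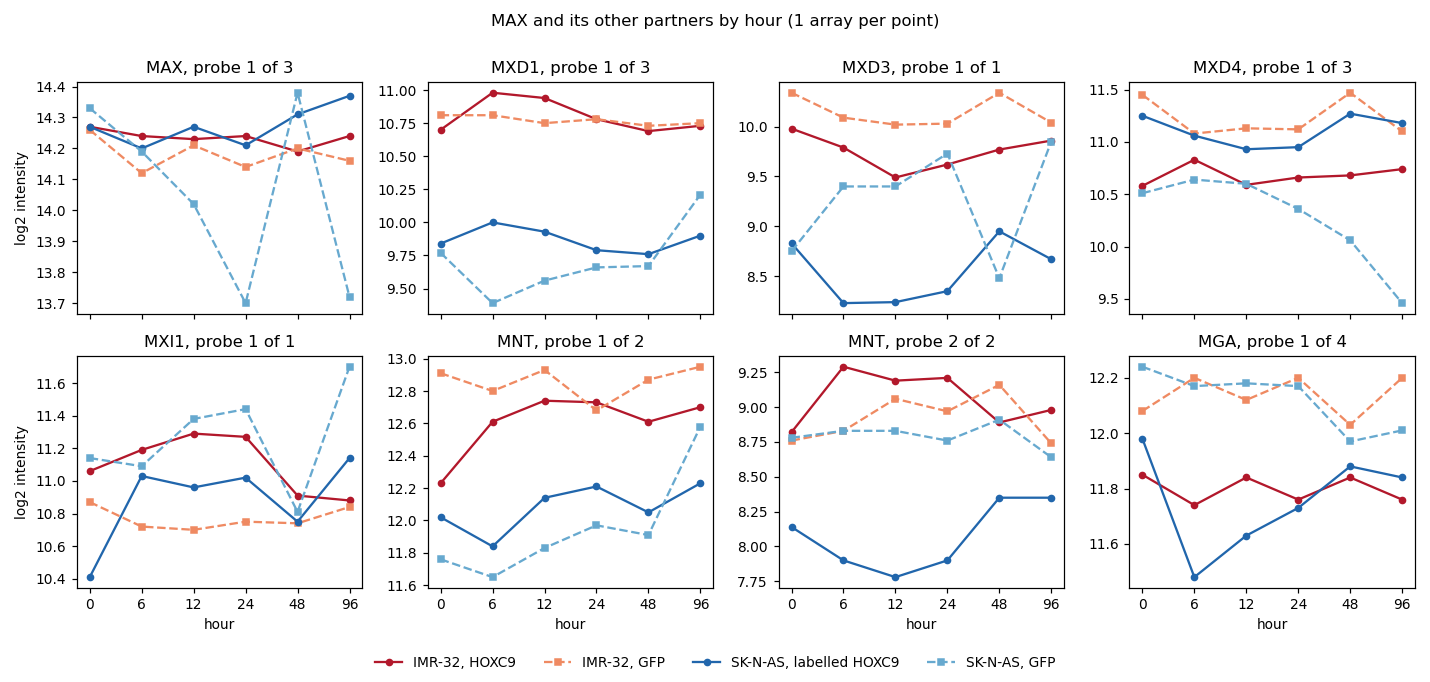
Log2 intensity (vertical axis) of the brightest probe of MAX, MXD1, MXD3, MXD4, MXI1 and MGA and of both MNT probes against the hour (horizontal axis, spaced by rank), 1 array per point. MXD4 with HOXC9 lies below GFP in IMR-32 (solid and dashed red) and above it in SK-N-AS (solid and dashed blue), and each panel has its own vertical range.

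The line comparisons used 12 arrays with a block per hour and the transgene comparisons 20 arrays with a block per line and hour, so their counts are given apart. Between lines in the GFP arrays 19 of 25 probes passed (6 higher and 13 lower in SK-N-AS), or at least 1 probe of each of the 10 genes, against 63.8% of all probes. In the arrays labelled HOXC9, 15 of 25 passed (6 higher and 9 lower) against 56.9%. In each set 14 of 25 passed without the 6, 12 and 24 h arrays of both lines, against 39.2% and 50.8% of all probes. The lines did not overlap on 16 of 25 probes with GFP and 14 of 25 under the HOXC9 label, as on 50.2% and 45.5% of all probes. The median difference over the 25 probes was -0.53 with GFP and -0.04 in the arrays labelled HOXC9, against 0.02 and 0.00 over all probes. For HOXC9 against GFP, 5 of 25 probes passed in IMR-32 (2 higher and 3 lower) against 22.8% of all probes, which is near the background. In IMR-32 8 of 25 passed once the 6, 12 and 24 h arrays of SK-N-AS were left out (26.8% of all probes) and 11 of 25 in the IMR-32 arrays alone (33.9%). In SK-N-AS 8 of 25 passed (3 higher and 5 lower) against 35.4%, again near the background, and 4 of 25 without the 6, 12 and 24 h arrays, against 14.6%, and also in the SK-N-AS arrays alone, against 18.8%. The groups did not overlap at 6 to 96 h on 12 of 25 probes in IMR-32, where 27.9% of all probes did not, and on 6 of 25 in SK-N-AS, where 19.2% did not. The difference between the lines' effects passed on 11 of 25 probes (7 higher and 4 lower) against 36%, and on 5 without the 6, 12 and 24 h SK-N-AS arrays against 24.2%. The 6 lost were MYCN probe 1, MAX probe 3, MXI1, MNT probe 2 and MGA probes 3 and 4 (adjusted p = 0.153, 0.365, 0.0685, 0.0876, 0.14 and 0.61). With each hour left out in turn, MYCN probe 3 and MYC probe 1 stayed past the test in IMR-32 every time, and so did MYCL probe 2, MXD4 probe 1 and MNT probe 2 in SK-N-AS. The other 8 calls of HOXC9 against GFP were each lost for at least 1 hour, with adjusted p reaching 0.184 for MXI1, 0.109 and 0.14 for MGA probes 1 and 3 in IMR-32. The SK-N-AS calls reached 0.12 for MYCN probe 1, 0.183 for MAX probe 3, 0.0833 for MXD1 probe 3, 0.0804 for MXD3 and 0.0818 for MGA probe 1. Between lines in the GFP arrays, MXD3 and MXD4 probe 2 were the called probes that leaving out 1 hour could undo, at adjusted p up to 0.0515 and 0.109.

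**Figure D3:**
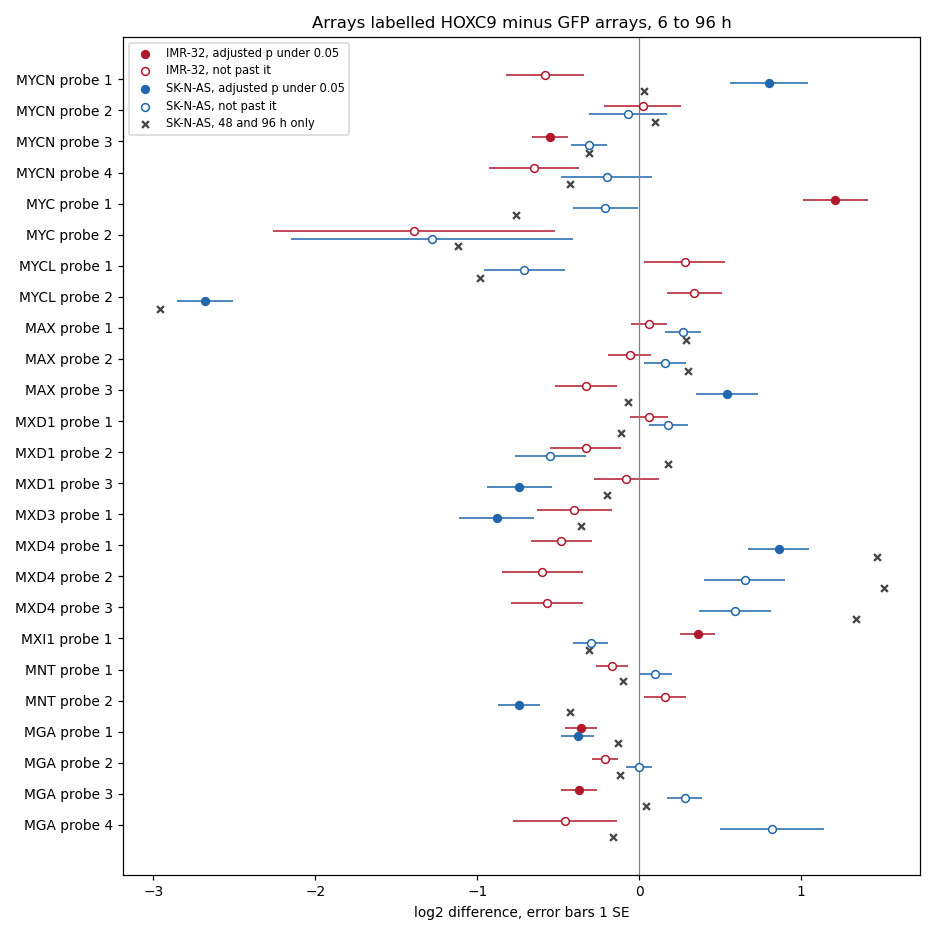
Difference in log2 intensity (horizontal axis, error bars 1 SE) between arrays labelled HOXC9 and GFP arrays at 6 to 96 h for each of the 25 member probes, with IMR-32 in red and SK-N-AS in blue, filled where the adjusted p is under 0.05. Grey crosses give SK-N-AS at 48 and 96 h alone, where MYCN probe 1 moves from 0.80 to 0.03 and MXD4 probe 1 from 0.86 to 1.47.

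**Figure D4:**
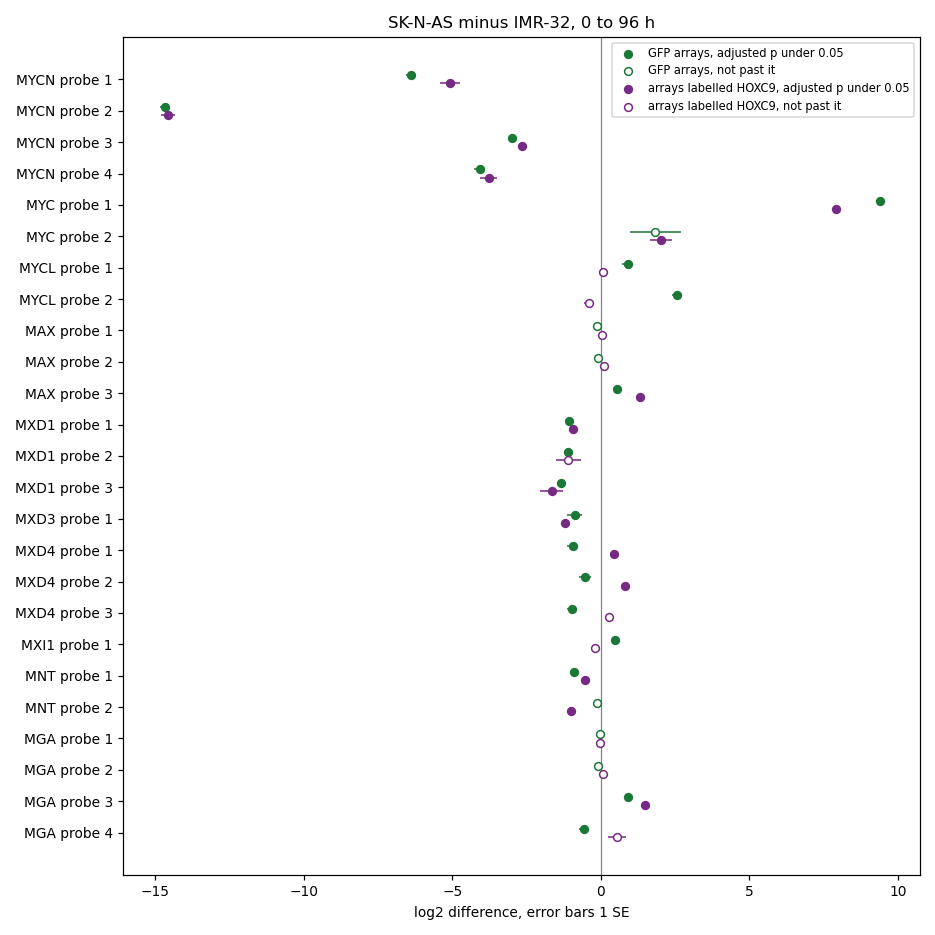
Difference in log2 intensity between SK-N-AS and IMR-32 (horizontal axis, error bars 1 SE) for each member probe in the 12 GFP arrays (green) and the 12 arrays labelled HOXC9 (purple), filled where the adjusted p is under 0.05. MYCN lies left on all 4 probes in both sets, MYC probe 1 lies right, and MXD4 changes side between the sets.

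No member passed the test for a trend over the hours. The HOXC9 minus GFP difference had a slope on log2(1 + h/6) past an adjusted p of 0.05 on 0 of 25 probes in either line, where 0% of all IMR-32 probes passed and 0.00447% of those in SK-N-AS. At an unadjusted p under 0.05 there was no member probe in the IMR-32 arrays (0 of 25, against 3% of all probes). The SK-N-AS arrays had 2 of 25, near the 6.35% of all probes, MYCL probe 2 (slope -0.39 ± 0.12) and MXD4 probe 1 (0.28 ± 0.10). Over the GFP arrays of both lines 0 of 25 probes and 0% of all probes passed by limma, and 2 member probes and 3.17% of all probes had an unadjusted p under 0.05.

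Genes beside MYCN and MYC on their chromosomes were compared between the lines, with the brightest probe for each gene. Among all named genes 37.9% were higher and 29.3% lower in SK-N-AS with GFP, and without the 6, 12 and 24 h arrays of both lines 23.3% and 19%. Of 10 measured genes around MYCN on 2p24, 3 were higher and 6 lower in SK-N-AS, with a median of -1.59 against 0.13 over all named genes (1 higher and 5 lower without those arrays). DDX1, an RNA helicase gene beside MYCN that is known to be co-amplified with it in some neuroblastomas, averaged 17.99 ± 0.05 (SD, n = 6) in IMR-32, whereas its SK-N-AS mean was 14.92 ± 0.18. The difference, SK-N-AS minus IMR-32, was -3.07 ± 0.08 (SE, adjusted p = 3.12e-07). LRATD1 was lower, at -8.65 ± 0.16, the neuronal calcium sensor gene VSNL1 at -6.82 ± 0.10 and the potassium channel gene KCNS3 at -5.23 ± 0.48. VSNL1 and KCNS3 are dim in SK-N-AS, and with 50 units added before logs they differed by -2.10 and -2.97. Copy number was not measured, so more copies and more transcript per copy cannot be told apart here, nor can fewer expressing cells and less RNA per cell anywhere in these bulk cultures. Of 9 measured genes around MYC on 8q24, 6 were higher and 1 lower in SK-N-AS, with a median of 0.67. LRATD2 was higher by 6.62 ± 0.19 (4.31 with 50 units added), NSMCE2, a SUMO ligase gene, by 0.84 ± 0.09, the long noncoding RNA PVT1 by 0.67 ± 0.07 and ASAP1 by 0.70 ± 0.08. The 4 named genes near MYC kept their calls without the 6, 12 and 24 h arrays, as did the 4 near MYCN.

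Genes that MYC proteins are known to activate did not share 1 direction between the lines. Of 28 measured textbook targets, 7 were higher and 10 lower in SK-N-AS with GFP, with a median of -0.20, and 1 and 6 without the 6, 12 and 24 h arrays of both lines. LIN28B, a let-7 inhibitor induced by MYCN, averaged 9.26 ± 0.23 (SD, n = 6) in IMR-32 and 0.62 ± 0.02, near the lowest intensity, in SK-N-AS. The LIN28B difference was -8.64 ± 0.10 (SE, adjusted p = 8.74e-09), and -3.69 with 50 units added. TERT, the telomerase catalytic subunit, was lower in SK-N-AS at -4.16 ± 0.17, SHMT2, a mitochondrial serine enzyme, at -1.21 ± 0.09 and NME1, a nucleoside diphosphate kinase, at -0.69 ± 0.07. Of 51 measured growth genes of the MYC programme, 15 were higher and 14 lower in SK-N-AS (12 and 11 without those arrays), with a median of 0.08. The ribosome biogenesis factor TCOF1 was higher by 1.26 ± 0.07 and the mitochondrial RNA factor TBRG4 by 1.27 ± 0.07, while the sterol-related TMEM97 was lower, at -2.25 ± 0.10. Of 19 measured genes that MYC or MYCN is known to repress, 11 were higher and 7 lower in SK-N-AS (9 and 6 without those arrays), with a median of 0.73. NDRG2 was higher in SK-N-AS by 6.73 ± 0.10, NGFR, the low-affinity neurotrophin receptor, by 5.09 ± 0.29 and the integrin ITGB1 by 1.35 ± 0.07. NDRG2 and NGFR are dim in IMR-32 and differed by 4.98 and 3.37 with 50 units added. NDRG1, named for its repression by MYCN, went the other way at -5.38 ± 0.21, from 13.09 ± 0.29 in IMR-32 to 7.71 ± 0.51 in SK-N-AS.

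**Figure D5:**
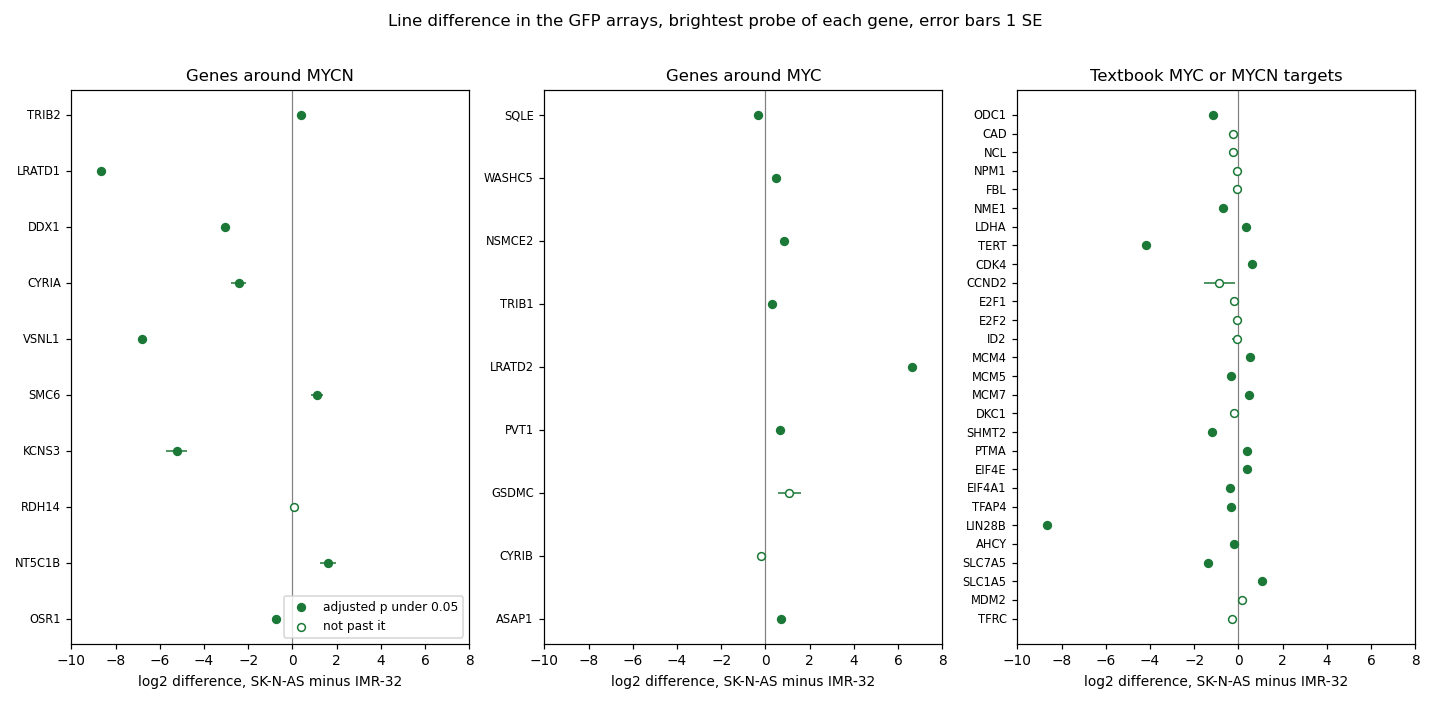
SK-N-AS minus IMR-32 difference in log2 intensity (horizontal axis, error bars 1 SE) in the GFP arrays for genes around MYCN, genes around MYC and textbook targets, 1 point per gene, filled where the adjusted p is under 0.05. LRATD1 at -8.65 and LIN28B at -8.64 lie furthest left, although LIN28B moves to -3.69 with 50 units added, and LRATD2 at 6.62 (4.31 with 50 units added) lies furthest right.

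Around the same targets the E-box was frequent. It stood in a promoter window of 11 of 23 textbook targets with a window (47.8%) and 23 of 44 growth genes (52.3%), against 1 of 12 repressed genes (8.33%) and 11.3% of array genes. Such lists were assembled in the field partly from MYC binding, so these shares describe the lists. The stretches of LIN28B, a target brighter in IMR-32, and PRMT3, a growth gene lower in IMR-32 with HOXC9 than with GFP, are shown with CACGTG in capitals. They lie at chr6:104957030-104957095 and chr11:20387499-20387564 (RefSeq, GRCh38.p14, plus strand).
LIN28B: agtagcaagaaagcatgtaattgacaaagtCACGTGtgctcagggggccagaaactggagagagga
PRMT3: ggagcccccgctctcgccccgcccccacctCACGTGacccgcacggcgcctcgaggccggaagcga
The LIN28B stretch belongs to 1 of the annotated starts of that gene.

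In IMR-32 with HOXC9, some targets were higher and some lower than with GFP. Among all named genes 12% were higher and 10.8% lower. The growth genes and the textbook targets passed less often than that in each direction. Of the 51 growth genes 3 were higher and 3 lower, including PRMT3, an arginine methyltransferase, at -0.92 ± 0.12 (adjusted p = 0.000579), the phosphatase DUSP2 at -1.02 ± 0.19 and the centriole kinase PLK4 at 0.50 ± 0.10. Of the 28 textbook targets 3 were higher and 2 lower, with LIN28B higher by 0.79 ± 0.07 (adjusted p = 5.72e-05) and AHCY, an enzyme of the methyl cycle, lower at -0.25 ± 0.07. Of the 19 repressed genes 6 were higher and 5 lower. NDRG1 was lower, at -2.45 ± 0.18 (adjusted p = 8.01e-06) and the Wnt antagonist DKK1 at -2.40 ± 0.18, while CDKN1B, the cell cycle inhibitor p27, was higher by 0.78 ± 0.17. Of 17 genes that control the turnover of MYC proteins 0 were higher and 4 lower, among them the deubiquitinases USP28 (-0.45 ± 0.11) and USP36 (-0.42 ± 0.11), which are known to stabilise MYC, and PPP2R5A (-0.29 ± 0.08), a phosphatase subunit known to promote its loss. Of 19 cofactors 1 was higher, the deacetylase HDAC2 (0.28 ± 0.08), and 1 lower, ZBTB17 (-0.26 ± 0.08), which is MIZ1, the partner through which MYC represses. None of the 5 genes of the parallel MLX branch passed by limma. Near MYC, LRATD2 was higher by 4.17 ± 0.30, and near MYCN, VSNL1 was lower at -2.42 ± 0.12, LRATD1 lower at -0.71 ± 0.17 and KCNS3 higher by 1.42 ± 0.37. LRATD2 is dim in IMR-32 with GFP, so the size of its difference depends on how low levels are treated.

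In SK-N-AS the counts were lower without the arrays of 6, 12 and 24 h. Of all named genes, 19.6% passed as higher and 20% as lower under the HOXC9 label, and 9.27% and 9.2% without those arrays, so the counts fell over the whole array too. Of the 28 textbook targets 1 was higher and 8 lower, and 0 and 0 without those arrays. E2F1 and E2F2, transcription factors of S phase entry, were lower under the HOXC9 label by 0.77 ± 0.18 and 0.88 ± 0.19, and differed by -0.16 and -0.34 without them. Of the 51 growth genes 6 were higher and 14 lower, and 3 and 3 without those arrays. BYSL, a ribosome assembly factor, was lower by 0.74 ± 0.08 (adjusted p = 0.000115), and NOLC1, a nucleolar phosphoprotein, higher by 0.77 ± 0.06 (adjusted p = 1.77e-05). Both stayed past the test without those arrays at -0.79 and 0.79. DUSP2 was higher by 2.42 ± 0.19 (2.34 without those arrays). Of the 19 repressed genes 8 were higher and 5 lower, and 6 and 1 without those arrays, with NDRG1 higher by 2.34 ± 0.18 and NDRG2 by 1.11 ± 0.17 (2.29 and 1.48 without them, both past the test). Of the 17 turnover genes 5 were higher and 3 lower, and 3 and 2 without those arrays. SKP2, an F-box protein that targets MYC for ubiquitination, was lower by 1.24 ± 0.15 and PPP2R5A higher by 0.76 ± 0.08 (-0.76 and 0.67 without them, both past the test). Of the 19 cofactors 4 were higher and 4 lower, and 0 and 1 without those arrays, and MLX and MLXIP of the MLX branch were higher by 0.31 ± 0.08 and 0.67 ± 0.15 but did not pass without them.

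Several of these genes had effects that differed between the lines, as tested in the same fit, in which 19.1% of named genes were higher and 19.3% lower. NDRG1 differed by 4.79 ± 0.25 (adjusted p = 7.15e-07), DKK1 by 3.48 ± 0.25, DUSP2 by 3.45 ± 0.27, PPP2R5A by 1.05 ± 0.12 and ZBTB17 by 0.59 ± 0.12 (SK-N-AS minus IMR-32). LIN28B, which is near the lowest intensity in SK-N-AS, differed by -0.74 ± 0.11 and BYSL by -1.07 ± 0.12. All 7 kept an adjusted p under 0.05 without the 6, 12 and 24 h arrays of SK-N-AS, at 4.75, 3.05, 3.36, 0.96, 0.59, -0.78 and -1.11 in that order.

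The profiles most like those of MYCN and MYC were named as a description. Over the 12 IMR-32 arrays, which share their labels with MYCN probe 1, the 5 of 2735 genes with the highest Pearson correlation were SEPTIN3 and VPS26B (0.96), and FAM219B, LOC644936 and HMGA1 (0.95). SEPTIN3 is a neuronal septin gene and HMGA1 a chromatin architectural gene. Over the 12 SK-N-AS arrays the genes most like MYC probe 1 among 6167 were RSAD1 (0.92), NUP153 and ZNF26 (0.91), and TMEM181 and MTHFD2 (0.90). NUP153 encodes a nuclear pore protein and MTHFD2 a mitochondrial folate enzyme. The SD of the members over these arrays was small, 0.38 for MYCN and 0.28 for MYC.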

How the data were processed

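The deposited table holds linear fluorescence intensities of 44708 probes on 24 one-colour Cy3 arrays. The authors used limma, per the submitters' processing notes, with no version, background or normalization setting given in the sources used here. Arrays had a common distribution (at any rank they differed by at most 0.0723%). The design had assumed a log2 table, and log2 of the deposited intensity was therefore used, with no offset. No detection flags were used and the depth is unknown. Precision is limited by the number of arrays.

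Probes were fitted with limma 3.58.1 (R 4.3.3), two-sided, with Benjamini-Hochberg adjustment over all 44708 probes and calls at 0.05. HOXC9 against GFP used the 20 arrays of 6 to 96 h in 1 fit with a block per line and hour (8 residual degrees of freedom). Lines were compared over 12 arrays with hour as a block, and trends used log2(1 + h/6). Same-hour arrays of a line correlated, after removing group means, at 0.037 to 0.109 (IMR-32) or -0.052 to 0.140 (SK-N-AS), and nothing else pairs them. The fits were tested on simulated data.

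The members and lists were chosen with earlier results of these data known. Named were every member probe, HOXC9, up to 4 called genes per list and comparison with the smallest p and a mean above log2 7, and the 5 most correlated genes with a mean above log2 9. Not every gene so named is described. The 2 lists of neighbours and the targets were written from general knowledge. Promoters came from RefSeq (GRCh38.p14), which held windows for MYCN, MYCL, MAX, MXD1, MXD3, MXD4, MXI1, MNT and MGA. Alternatives were offsets of 16 and 50, probes above log2 7, brightest probes, centring, eBayes with trend, other sets of arrays and codings of the hour, and no block.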

Additional observations from a re-analysis of the deposited data

Results flagged for a closer look

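Among 104 checks (26 probes, HOXC9 included, in 4 groups of 6 arrays), 8 had 1 array far from the other 5 of its group, where chance marks about 1 in 20 groups. MYC probe 2 read 7.40 in IMR-32 with GFP at 48 h against 0.91 to 1.36 in the rest. MYCN probe 1 read 14.15 in IMR-32 with HOXC9 at 12 h (rest 14.61 to 14.84) and 8.38 in SK-N-AS with GFP at 96 h (rest 8.81 to 9.05). MYCN probe 4 read 7.73 in IMR-32 with HOXC9 at 6 h (rest 9.25 to 9.55). MXD1 probe 2 read 8.23 in IMR-32 with GFP at 0 h (rest 8.03 to 8.10). In SK-N-AS with GFP at 96 h, MXD4 probe 3 read 8.54 (rest 9.28 to 9.64) and MNT probe 1 read 12.58 (rest 11.65 to 11.97). MNT probe 1 also read 12.23 in IMR-32 with HOXC9 at 0 h (rest 12.61 to 12.74).

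The HOXC9 minus GFP difference itself differed between the lines, SK-N-AS minus IMR-32, for 12 probes by the limma interaction test. These were MYCN probe 1 at 1.38 (adjusted p = 0.0105), MYC probe 1 at -1.42 (0.00382), MYCL probe 2 at -3.02 (1.55e-05), MAX probe 3 at 0.88 (0.026), MXD4 probes 1 to 3 at 1.34, 1.25 and 1.16, MXI1 at -0.66 (0.01), MNT probe 2 at -0.90 (0.00468), MGA probes 3 and 4 at 0.64 and 1.28 (0.00907 and 0.0499), and HOXC9 at -4.65 (1.6e-07), whose sign in SK-N-AS goes against the label.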

How the results depend on the processing

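The number of member probes past the test moved with the arrays used. In IMR-32, 5 of 25 (22.8% of all probes) became 8 without the 6, 12 and 24 h arrays of SK-N-AS (26.8%), 11 in the IMR-32 arrays alone (33.9%), and 2 to 7 with 1 hour left out (13.7% to 22.6% of all probes). In SK-N-AS, 8 of 25 (35.4%) became 4 without those arrays (14.6% of all probes), 4 in the SK-N-AS arrays alone (18.8%), 12 of the 19 member probes above log2 7 (51.8% of all such probes), and 3 to 12 with 1 hour left out (20.9% to 37.8%). The difference between the lines' effects went from 11 (36%) to 5 without those arrays (24.2%), and to 5 to 13 with 1 hour left out (22.4% to 38.3%). With 1 hour left out, line comparisons gave 17 to 19 of 25 with GFP (58.2% to 62.4%) and 15 to 17 in the arrays labelled HOXC9 (51.7% to 56.3%). Without the 6, 12 and 24 h arrays of both lines each gave 14 (39.2% and 50.8%). The SK-N-AS trend, at 0.00447% of probes, gave 0.00224% with an offset of 16 or with trend and robust eBayes, 0.00895% after centring, and 0% with an offset of 50, probes above log2 7 or brightest probes. MAX probe 3 turned to -0.07 in SK-N-AS without 6, 12 and 24 h, and MYC probe 2 ranged from -1.27 to 0.65 in the difference between lines with 1 hour left out, turning without 48 h, where 1 IMR-32 GFP array reads 7.40. With no replicate block, the 3 MXD4 probes passed in IMR-32 (adjusted p = 0.0453, 0.0462 and 0.0393) and MXI1 did not (0.0646). In SK-N-AS, MXD1 probe 3 was then lost (0.0725), and MXD4 probes 2 and 3, MYCL probe 1 and MGA probe 4 were gained (0.022, 0.0237, 0.0267 and 0.0269). MYCL probe 1 was also gained in the difference between the lines' effects (0.028), and MXD1 probe 2 between lines in the arrays labelled HOXC9 (0.0209). Over the 25 probes and HOXC9, 2250 results under alternatives gave 2074 with the same sign and side of the threshold or called in neither, 89 newly past it, 85 no longer past it and 2 turned. The cause of these moves was not tested. Dim probes (MYC in IMR-32, MYCL, MYCN probe 2 in SK-N-AS) limit the folds.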
